A study of Ovis aries with 4 samples.

Results

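CHAT, SLC5A7, ACHE and NOS1 are 4 of the 26478 genes measured in frozen sheep striatum, and they were followed from library sums down to single nuclei. They were chosen by name, as the genes listed under those symbols in the deposited gene lists, where each symbol had exactly 1 row. Acetylcholine in the striatum comes mainly from a sparse population of large interneurons. CHAT makes acetylcholine from choline and acetyl-coenzyme A, SLC5A7 returns choline to the nerve terminal, and ACHE breaks acetylcholine down outside the cell. NOS1 makes nitric oxide from arginine and in the striatum marks a different sparse population, interneurons that also carry somatostatin (SST) and neuropeptide Y (NPY). Nuclear RNA sequencing captures transcripts still in the nucleus, so that a level here is a level of nuclear RNA and not of protein or enzyme activity.

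The material was striatum of sheep aged 5 years, with no treatment, strain or genotype given in the labels, and every group shared freezing before dissociation. There were 4 droplet libraries. In 2 of them whole cells were released with papain, a protease, and in the other 2 a detergent homogenate of the tissue yielded nuclei. Replicate 1 of each kind held a pool of sheep 1 and 2, and replicate 2 a pool of sheep 3 and 4, so that no value belongs to a single animal. For the second suspension of cells the protocol text gives animals 2 and 3 instead, and the titles were followed.

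Each count is a unique molecular identifier (UMI), which marks 1 captured RNA molecule. The whole cells libraries held 1115058 and 19241918 UMIs under 2162 and 32500 barcodes, and 88.7% and 86.9% of these UMIs came from mitochondrial genes. The nuclei libraries held 70473292 and 51102420 UMIs under 8815 and 8723 barcodes, with 0.779% and 0.776% mitochondrial. Any 2 of the 4 libraries shared 2 to 87 barcodes, and the nuclei libraries shared 29. Classes were built from 8310 and 8388 nuclei by clustering without the 4 genes and without the lists of acetylcholine handling, cholinergic lineage and nitric oxide genes. They were named from marker genes outside those lists, and a class is called "X-like" because its name rests on those markers alone. Medium spiny neuron-like nuclei, the defining neurons of the labelled tissue, were 14.2% and 14.7% of nuclei, and oligodendrocyte-like nuclei 46.1% of replicate 1. The class names held no cholinergic one, so that no cluster could be given such a name. The nuclei of interest for CHAT and SLC5A7 fell in 2 clusters that remained unnamed, cluster 1, led by SHISAL1 and LGR5, and cluster 6, led by ECEL1 and CRABP1.

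All 4 genes were rare in nuclei. CHAT had a UMI in 134 of 8310 nuclei of replicate 1 and 366 of 8388 of replicate 2, which is 1.61% and 4.36%. SLC5A7 had one in 62 and 64 nuclei, 0.746% and 0.763%. ACHE had one in 373 and 167 nuclei, 4.49% and 1.99%, and NOS1 in 113 and 113, 1.36% and 1.35%. Without regard to depth, SLC5A7 and NOS1 were at like shares in both pools, whereas CHAT was more frequent in replicate 2 and ACHE in replicate 1. Most nuclei with CHAT held a single UMI of it, 85.1% in replicate 1 and 92.1% in replicate 2. For NOS1 the corresponding shares were 61.1% and 57.5%, and the 10 nuclei with most NOS1 held 70.9% and 67.8% of its UMIs. With each nucleus thinned to 1000 UMIs, which left out 514 and 1013 shallower nuclei, the shares were 0.616% and 1.59% for CHAT, 0.359% and 0.258% for SLC5A7, 1.01% and 0.420% for ACHE and 0.244% and 0.542% for NOS1. The order of the 2 libraries for CHAT and for ACHE was the same after thinning, and NOS1 was then more frequent in replicate 2. With 1 library per pool of animals, differences between nuclei libraries carry no test.

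**Figure D1:**
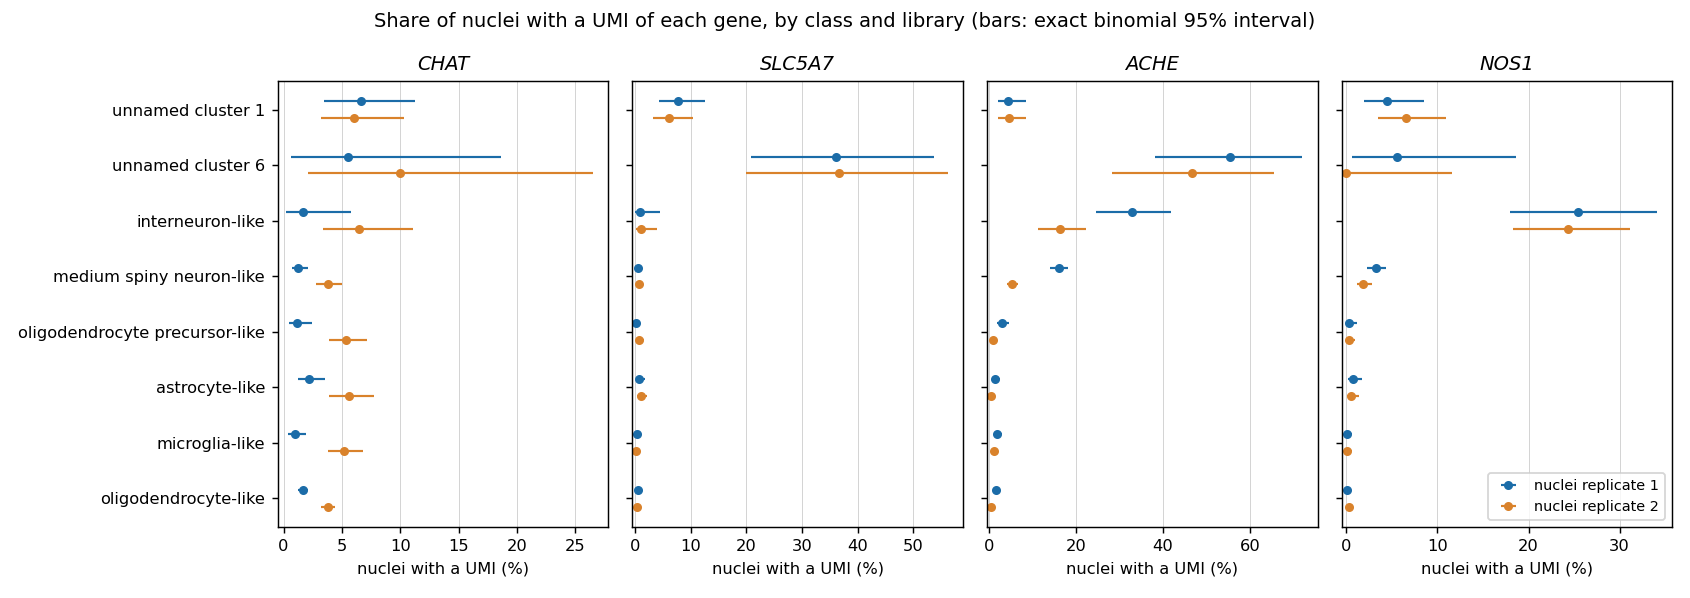
Share of nuclei with at least 1 UMI of each gene (horizontal axis, %) in 6 named classes and 2 unnamed clusters (vertical axis), for nuclei replicate 1 in blue and replicate 2 in orange, with exact binomial 95% intervals that cover counting error only. NOS1 stands at 25.4% and 24.3% in interneuron-like nuclei, SLC5A7 at 36.1% and 36.7% in cluster 6, and CHAT is higher in replicate 2 in every glial class shown.

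CHAT, the synthetic enzyme, was at its highest level in cluster 1, at 167 and 229 CPM (counts scaled to the same total in every class and library) in replicates 1 and 2, a mean of 198 ± 43.9 (SD, n = 2). Cluster 1 held 181 and 198 nuclei, 2.18% and 2.36% of all, but 47.9% and 34.2% of all CHAT UMIs. Its level rested on 11 nuclei per library with both CHAT and SLC5A7, which held 123 and 194 CHAT UMIs. The other 170 and 187 nuclei of cluster 1 held 1 and 1. The ranges of cluster 1 and of cluster 6, at 66.4 and 150 CPM from 3 and 5 UMIs, did not overlap. Below them the order ran from microglia-like nuclei at 16.4 ± 16.2 CPM to medium spiny neuron-like nuclei at 1.08 ± 0.948 CPM (SD, n = 2), and each neighbour in that order overlapped the next. Interneuron-like nuclei came next to last, at 0.760 and 2.95 CPM.

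Outside cluster 1 most nuclei with CHAT held 1 UMI of it, and no nucleus of a named class held more than 2. The highest counts outside cluster 1 were 5 in a nucleus of cluster 9 and 3 in clusters 6 and 16, and the 11 and 9 lymphocyte-like nuclei held none. Oligodendrocyte-like nuclei, which should lack the gene, had a CHAT UMI in 63 of 3834 nuclei of replicate 1 (1.64%, 95% interval from 1.26%) and in 148 of 3905 of replicate 2 (3.79%, from 3.21%), at median depths of 2201 and 1596 UMIs. Nuclei named medium spiny neuron-like, after the striatum's output neurons, were at 1.27% and 3.80% with median depths of 31935 and 17785 UMIs. Since those shares are no higher than the oligodendrocyte-like one in replicate 1 and next to it in replicate 2, at a much greater depth, no expression is read from them. In microglia-like nuclei the shares were 0.983% and 5.15%, in oligodendrocyte precursor-like nuclei 1.19% and 5.32%, and in astrocyte-like nuclei 2.20% and 5.64%. In each of these 5 classes the replicate 2 share was the higher one with no overlap between the 2 intervals, whereas in cluster 1 the shares were 6.63% and 6.06%.

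The level of CHAT in oligodendrocyte-like nuclei was 6.74 CPM in replicate 1 and 20.6 CPM in replicate 2, a ratio of 3.05. On the log2 scale with 0.1 CPM added this was 1.60, above 98.6% of the 10182 genes compared in that class. In cluster 1 the same ratio was 1.37. In medium spiny neuron-like nuclei it was 4.27 and in astrocyte-like nuclei 2.65. The oligodendrocyte-like class held clusters 3, 4 and 5, whose shares of it differed between the libraries. Cluster 3, with 3148 and 1296 nuclei, was at 6.16 and 8.13 CPM of CHAT, found in 1.46% and 1.85% of its nuclei. Cluster 4, with 243 and 2098 nuclei, was at 6.72 and 33.1 CPM, and cluster 5 at 9.70 and 18.2 CPM. The cause of these differences between the nuclei libraries was not tested. In RefSeq's annotation of the assembly ARS-UI_Ramb_v3.0, CHAT neighbours SLC18A3, the vesicular acetylcholine transporter, whose gene lies within the CHAT locus in mammals. The counting rule for strand is not given in the sources used here, so reads of overlapping transcripts at this locus cannot be told apart.

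SLC5A7, the high-affinity choline transporter, was concentrated in the same 2 clusters. Cluster 1 held 175 of 256 and 151 of 236 of its UMIs, which is 68.4% and 64.0%, at 236 and 178 CPM. Of these, 168 and 150 lay in the 11 nuclei per library with both genes, and 7 and 1 in the other 170 and 187. Cluster 6 held 36 UMIs in each library, in 13 of 36 and 11 of 30 nuclei, at 797 and 1080 CPM. The levels of the 2 clusters did not overlap, nor did that of cluster 1 and the next class, astrocyte-like nuclei at 3.94 ± 0.625 CPM (SD, n = 2). Oligodendrocyte-like nuclei were at 2.01 and 2.24 CPM, with a UMI in 0.469% and 0.359% of nuclei. Medium spiny neuron-like nuclei were at 0.169 and 0.328 CPM and interneuron-like nuclei at 1.52 and 0.454 CPM, from 4 and 2 UMIs. The intervals of the libraries overlapped for SLC5A7 in oligodendrocyte-like and astrocyte-like nuclei. The highest share in a named class was 1.08%, in interneuron-like nuclei of replicate 2, and cluster 16 of replicate 2 had SLC5A7 in 3 of 118 nuclei. Thinned to 1000 UMIs, cluster 1 had SLC5A7 in 7.26% and 2.14% of its nuclei and CHAT in 2.42% and 2.14%, against CHAT in 0.819% and 2.03% of oligodendrocyte-like nuclei.

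CHAT and SLC5A7 were found together in 14 nuclei of replicate 1 and 16 of replicate 2. Of the nuclei with SLC5A7, 22.6% and 25.0% also had CHAT, against 1.45% and 4.20% of the nuclei without SLC5A7. In the other direction 10.4% and 4.37% of the nuclei with CHAT had SLC5A7. Counting only nuclei with at least 2 UMIs of each gene, 11 nuclei in each library had both, which was 55.0% and 37.9% of those with at least 2 CHAT UMIs. The vesicular transporter SLC18A3, encoded beside CHAT, had 3 and 1 UMIs in the nuclei libraries and 0 and 3 in the whole cells libraries. It was found with SLC5A7 in 1 nucleus and with CHAT in none, at a depth that gives no level for it.

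**Figure D2:**
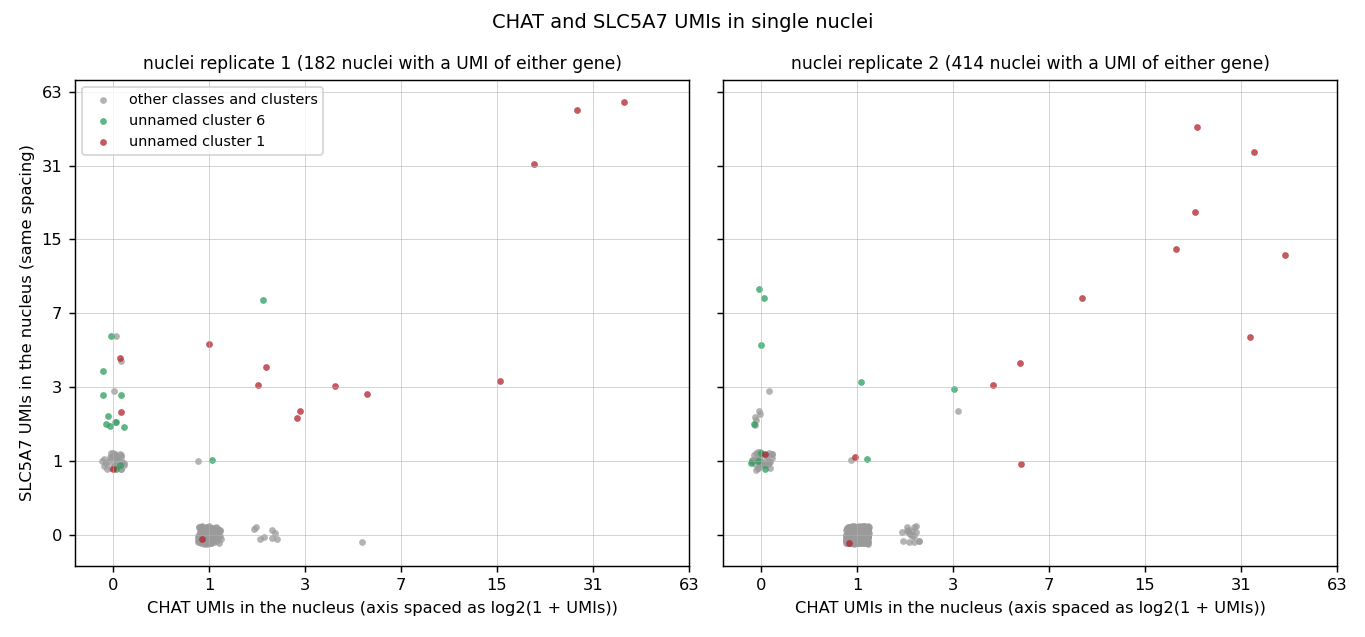
CHAT UMIs (horizontal axis) and SLC5A7 UMIs (vertical axis) of every nucleus with either gene, in replicate 1 (left) and replicate 2 (right), spaced as log2(1 + UMIs) with small random offsets so that equal points can be told apart. Red points are cluster 1, green points cluster 6 and grey points all other nuclei: the nuclei with many UMIs of both genes are red, up to 40 and 41 CHAT UMIs, cluster 6 holds up to 3 CHAT UMIs, and most grey points hold 1 CHAT UMI and no SLC5A7.

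Nuclei with at least 2 of CHAT, SLC5A7 and SLC18A3, here called pair nuclei, numbered 15 and 16, and 11 in each library lay in cluster 1. These 11 nuclei held 123 of 259 CHAT UMIs in replicate 1 and 194 of 570 in replicate 2, and 168 of 256 and 150 of 236 SLC5A7 UMIs. The deepest in replicate 1, with 82415 UMIs, carried 26 CHAT and 57 SLC5A7 UMIs, and another of 52091 UMIs carried 40 and 56. In replicate 2 the richest in CHAT carried 41 CHAT and 14 SLC5A7 UMIs and the richest in SLC5A7 carried 22 and 44. Over the whole of cluster 1, CHAT was in 12 of 181 and 12 of 198 nuclei and SLC5A7 in 14 and 12. The pair nuclei were deeper than the other 170 and 187, with median depths of 6671 and 29795 UMIs against 1697 and 1439, and the part of depth in the split was not tested.

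Lineage genes were read in the pair nuclei of cluster 1, a subset chosen after their values were seen. Over all 15 and 16 pair nuclei LHX8 was in 11 and 10, which is 73.3% and 62.5%. In cluster 1 LHX8, a LIM homeodomain factor of cholinergic neuron development, had a UMI in 10 of 11 pair nuclei in each library, at 384 and 322 CPM. TACR1, the substance P receptor, had one in 9 and 10 nuclei at 1011 and 904 CPM. ISL1, another LIM homeodomain factor, was found in 5 and 7. NKX2-1, which marks cells born in the medial ganglionic eminence, was in 4 and 6 nuclei, and LHX6 of the same lineage in 3 and 7. SLC17A8, the vesicular glutamate transporter VGLUT3, was in 2 and 4, NGFR, the low-affinity neurotrophin receptor, in 2 and 2 and the muscarinic receptor CHRM2 in 0 and 1. DRD5 was in none, and GBX2 had 0 UMIs in all nuclei of both libraries. Of the 12 lineage genes named in the files, 10 had a UMI in at least 1 of these nuclei.

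The other nuclei of cluster 1 had LHX8 in 3 of 170 and 3 of 187, TACR1 in 5 and 4, and SST in 29 and 24. Medium spiny neuron-like nuclei had LHX8 in 0.254% and 0.243% and ISL1 in 1.52% and 2.51%, at median depths of 31935 and 17785 UMIs against 6671 and 29795 in the pair nuclei. Among the genes of acetylcholine handling, the pair nuclei of cluster 1 had ACLY, which makes acetyl-coenzyme A, in 8 and 10 nuclei. They had SLC44A1, a choline transporter, in 9 and 9, SLC10A4, a vesicle protein of cholinergic and monoaminergic neurons, in 3 and 5, and the cholinesterase BCHE in 1 and 7. ACHE was in 4 and 6 of them and NOS1 in 2 and 1. These nuclei were selected by CHAT and SLC5A7, so that the levels of those 2 genes in them are no result, and those of the other genes are a description.

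Of the 9 pair nuclei outside cluster 1, 5 lay in cluster 6, 2 in cluster 16, 1 among medium spiny neuron-like and 1 among oligodendrocyte-like nuclei. The 2 in cluster 16 had 130643 and 21495 UMIs and no LHX8, ISL1 or TACR1. The doublet caller marked no nucleus of replicate 2, so that 2 cells in 1 droplet cannot be told apart from 1 cell there.

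**Figure D3:**
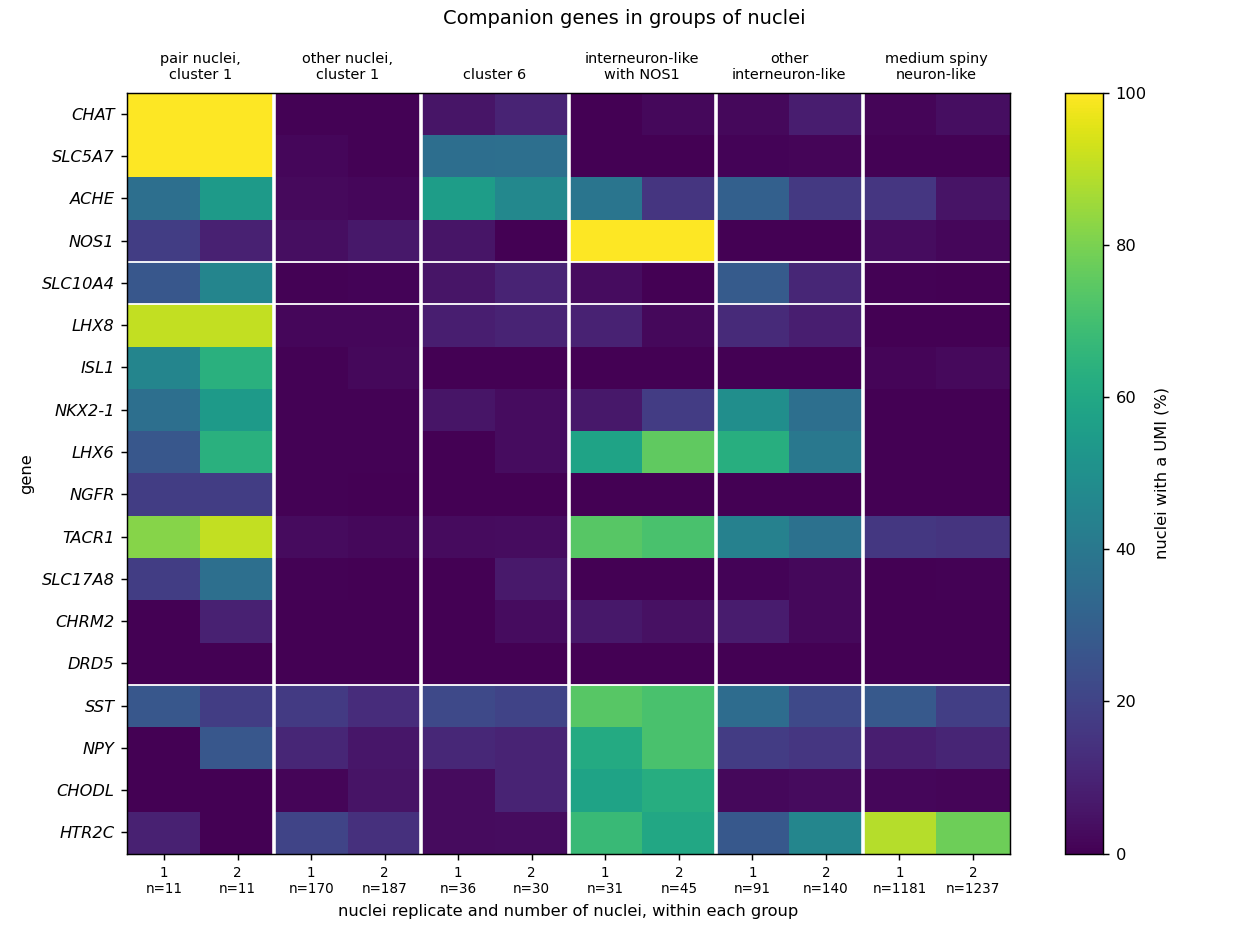
Share of nuclei with a UMI (colour, 0 to 100%) of the 4 genes, SLC10A4, cholinergic lineage genes and the companions of NOS1 interneurons (rows) in 6 groups of nuclei, with 1 column per library and its number of nuclei. The pair nuclei of cluster 1 and the interneuron-like nuclei with NOS1 share TACR1 and LHX6 but differ in LHX8 and ISL1 on one side and NPY, CHODL and HTR2C on the other. CHAT and SLC5A7 in the first group and NOS1 in the fourth reach 100% by selection.

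ACHE, the enzyme that ends the acetylcholine signal, had its highest level in cluster 6. It was found there in 20 of 36 nuclei of replicate 1 and 14 of 30 of replicate 2, at 1350 and 750 CPM, a mean of 1050 ± 424 (SD, n = 2). Next came interneuron-like nuclei at 28.1 and 7.72 CPM and cluster 1 at 20.3 and 14.1 CPM, whose ranges overlapped. Medium spiny neuron-like nuclei had a UMI in 16% and 5.17% of nuclei against 1.46% and 0.487% of oligodendrocyte-like nuclei. Per UMI they did not stand above them, at 5.85 and 2.44 CPM against 6.64 and 2.64 CPM, and thinned to 1000 UMIs the shares were 0.846% and 0.162% against 0.819% and 0.272%. The ACHE level of oligodendrocyte-like nuclei fell by 1.30 on the log2 scale from replicate 1 to replicate 2, with 0.756% of the genes compared below it, the reverse of CHAT. In interneuron-like nuclei the share was 32.8% in replicate 1 and 16.2% in replicate 2, and the intervals did not overlap.

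SLC5A7 was found with ACHE more often than with CHAT. There were 27 such nuclei in replicate 1 and 25 in replicate 2, which is 43.5% and 39.1% of the nuclei with SLC5A7. Among nuclei without SLC5A7, 4.20% and 1.71% had ACHE. Of these nuclei with both genes, 13 and 10 lay in cluster 6 and 5 and 7 in cluster 1. The shares fell to 25.0% and 26.3% after thinning to 1000 UMIs, from 7 and 5 nuclei. CHAT and ACHE were together in 10 and 16 nuclei.

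Cluster 6 held 36 and 30 nuclei with median depths of 691.5 and 879 UMIs and median mitochondrial shares of 3.19% and 3.49%, against 0.653% and 1.15% in oligodendrocyte-like nuclei. It was first of the clusters for SLC5A7 and ACHE per UMI and the next after cluster 1 for CHAT, which rested on 3 and 5 UMIs in 2 and 3 nuclei. Of its 36 and 30 nuclei, 15 and 13 had ACLY, 3 and 3 had LHX8, none had ISL1, and 9 and 12 had GAD2, an enzyme of GABA synthesis. SYT1, a synaptic vesicle protein found in neurons, was in 29 and 24. NEFL, a neurofilament, was in 15 and 19. SST was in 8 and 6 nuclei with 137 and 192 UMIs. The part of its low depth and high mitochondrial share in these counts was not tested.

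NOS1, the neuronal nitric oxide synthase, was at 240 and 183 CPM in interneuron-like nuclei, a mean of 212 ± 40.5 (SD, n = 2). That class held 1.47% and 2.21% of the nuclei and 85.5% and 90.2% of all NOS1 UMIs. Levels were ranked over units with at least 20 nuclei in each library, where cluster 17 came next at 51.3 ± 26.3 CPM from 4 UMIs, followed by cluster 1 at 20.3 and 30.6 CPM. Cluster 11, with 42 and 2 nuclei, was not ranked and had NOS1 in 12 and 1 of them, at 55.8 and 127 CPM. Medium spiny neuron-like nuclei were at 1.08 and 0.875 CPM and oligodendrocyte-like nuclei at 0.201 and 1.32 CPM. The share of nuclei with NOS1 was 25.4% and 24.3% in interneuron-like nuclei, 3.21% and 1.86% in medium spiny neuron-like nuclei and 0.0522% and 0.256% in oligodendrocyte-like nuclei. Thinned to 1000 UMIs it was 9.84% and 11.9% in interneuron-like nuclei and 0.0846% and 0.0808% in medium spiny neuron-like nuclei, and no nucleus of either class was left out.

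Within the interneuron-like class NOS1 separated the 2 clusters. Cluster 14 had CHODL and NPY among its leading genes and SST among its raised markers. NOS1 was in 19 of 21 and 28 of 30 of its nuclei, at 1341 and 1348 CPM. Cluster 15, with PTHLH and KIT, had it in 12 of 101 and 17 of 155. NOS1 itself was left out of the clustering, but SST, NPY and CHODL were not. The highest single nucleus carried 194 NOS1 UMIs together with 329 SST UMIs in a depth of 44085, and that of replicate 2 carried 100 NOS1 and 116 SST UMIs.

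**Figure D4:**
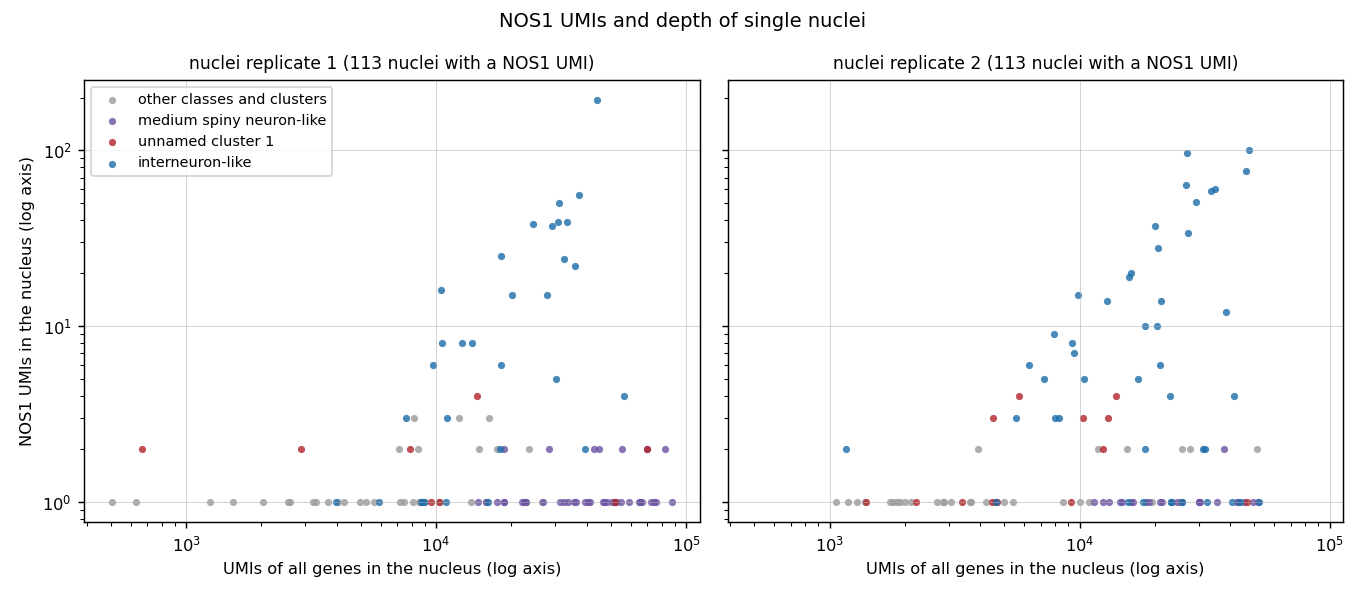
NOS1 UMIs (vertical axis, log scale) against the UMIs of all genes (horizontal axis, log scale) for every nucleus with NOS1, in replicate 1 (left) and replicate 2 (right). Nuclei with 5 or more NOS1 UMIs are all interneuron-like (blue), up to 194 and 100, whereas medium spiny neuron-like nuclei (purple) hold 1 or 2.

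The 31 and 45 interneuron-like nuclei with NOS1 had SST in 23 and 32, NPY in 19 and 32 and CHODL in 18 and 28. They had HTR2C, a serotonin receptor, in 21 and 27 and TACR1 in 23 and 32. The other 91 and 140 interneuron-like nuclei had SST in 32 and 31, NPY in 16 and 22, CHODL in 2 and 4 and TACR1 in 40 and 52, at median depths of 17819 and 16138 UMIs against 18097 and 20631. LHX6 was in 18 and 34 of the nuclei with NOS1. NKX2-1 was in 2 and 8 of the nuclei with NOS1 and in 45 and 51 of the others, and LHX8 in 3 and 1 against 11 and 12, differences that were not tested. SLC10A4 was in 1 and 0 of the nuclei with NOS1 and in 26 and 15 of the others, which was not tested either. SLC5A7 was in 1 and 2 of those others, and nuclei with both SLC10A4 and SLC5A7 were not counted.

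CHAT and NOS1 were together in 2 and 5 nuclei, of which 1 was interneuron-like, and SLC5A7 and NOS1 in 2 and 1, all in cluster 1. NOS1 was in 1.49% and 1.37% of nuclei with CHAT and in 1.36% and 1.35% of those without. Among the interneuron-like nuclei with NOS1, CHAT was in 0 and 1 and SLC5A7 in none. ACHE and NOS1 were together in 22 and 9 nuclei, of which 12 and 7 were interneuron-like. ACHE was in 19.5% and 7.96% of nuclei with NOS1 against 4.28% and 1.91% of those without. A nucleus of cluster 1 in replicate 1 had all 4 genes, at a depth of 69509 UMIs, with 21 CHAT, 30 SLC5A7, 3 ACHE and 2 NOS1 UMIs. In all, 557 and 602 nuclei had 1 of the 4 genes, 50 and 36 had 2, and 7 and 12 had 3. SST with NOS1, which belong to the same interneurons, were together in 46 and 44 nuclei, 40.7% and 38.9% of those with NOS1, against 22.9% and 16% of those without.

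Sums per class and library were tested with edgeR's quasi-likelihood test with the library as a block, and p-values were adjusted over the 12979 genes tested. Interneuron-like nuclei against the mean of the other classes showed NOS1 higher by 7.98 on the log2 scale (SE 0.20, adjusted p = 1.01e-09) and ACHE higher by 1.92 (SE 0.20, adjusted p = 1.9e-05), in both libraries. CHAT was lower, at a log2 difference of -1.89 (SE 0.36, adjusted p = 0.00148), and SLC5A7 at -0.50 did not pass (adjusted p = 0.592). The CHAT value rests on 2 and 13 UMIs in interneuron-like nuclei of median depths 17943 and 17995, against 2201 and 1596 in oligodendrocyte-like nuclei, and clusters 1 and 6 were not in this fit. The share of nuclei with CHAT was 1.64% and 6.49% in interneuron-like and 1.64% and 3.79% in oligodendrocyte-like nuclei, so that the lower level per UMI was not a lower share, and the part of depth was not tested. Of the 4 genes 3 were called, where 46.4% of all genes were, 25.8% higher and 20.7% lower. Against medium spiny neuron-like nuclei alone, NOS1 differed by 7.46 (adjusted p = 1.52e-07) and ACHE by 1.74 (adjusted p = 0.000275), and CHAT at 0.60 and SLC5A7 at 1.55 did not pass (adjusted p = 0.352 and 0.190). There 2 of 4 were called, where 31.1% of all genes were, 14.7% higher and 16.3% lower.

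The direction for CHAT and SLC5A7 changed with the clustering. As clustered here none of the pair nuclei were among the 122 and 185 interneuron-like nuclei. At a finer resolution 8 and 10 were among 659 and 478, and interneuron-like nuclei were then above the other classes by 2.45 for CHAT (adjusted p = 1.65e-05) and by 4.80 for SLC5A7 (adjusted p = 6.63e-08). The CHAT call was lost without the library block (adjusted p = 0.196) and with the 8% highest doublet scores removed (adjusted p = 0.144). NOS1 passed as higher in both contrasts under every alternative with a test, and ACHE in all but 1, the contrast with medium spiny neuron-like nuclei without the library block, where its adjusted p was 0.111.

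Genes of the same pathways were counted in these fits. Of 7 tested genes of acetylcholine handling, 2 were higher in interneuron-like nuclei than in the other classes and 2 were lower, with a median of -0.09, where 25.8% of all genes were higher and 20.7% lower with a median of -0.01. SLC10A4 was higher by 4.02 and choline kinase beta (CHKB) by 0.76, and SLC44A1 and choline kinase alpha (CHKA) were at -1.18 and -0.53. Of the 12 lineage genes 5 passed the filter on low counts, and each was called. A gene can pass it through the class where it is high, so that this count is no support. The same limit holds for the acetylcholine handling count, where SLC10A4 had 69 and 68 UMIs in the nuclei libraries. LHX6 was higher by 10.1, NKX2-1 by 8.69, TACR1 by 5.88 and LHX8 by 5.09, and ISL1 and SLC17A8 were among those not tested. Of 14 receptor genes 5 passed that filter, all nicotinic subunits, and their count and median are likewise no support. CHRNA6 rose by 6.52, CHRNB4 by 6.16, CHRNA3 by 3.89, CHRNB2 by 3.00 and CHRNA5 by 2.04. Against medium spiny neuron-like nuclei CHRNB2 was at -1.16 and did not pass (adjusted p = 0.112).

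Among 19 tested genes of nitric oxide synthesis and signalling, 11 were higher in interneuron-like nuclei than in the other classes and 2 lower, with a median of 0.96, beside 25.8%, 20.7% and -0.01 over all genes. Of the 23 named in the files only these 19 passed the filter on low counts. A gene can pass it through the class where it is high, so that this count and median are no support. Higher were PRKG2, a cyclic GMP-dependent kinase, by 3.73, the guanylyl cyclase subunit GUCY1A2 by 3.00 and ASS1, which with ASL rebuilds arginine from citrulline, by 2.90. Higher too were PDE9A by 1.91, PDE1A by 1.73, PRKG1 by 1.71, ASL by 1.45 and GUCY1A1 by 1.38. Against medium spiny neuron-like nuclei 5 were higher and 4 lower, with a median of -0.14, beside 14.7% higher, 16.3% lower and a median of -0.05 over all genes. PRKG2 was higher by 5.36, PDE1A by 3.80 and ASL by 3.35. The guanylyl cyclase subunits GUCY1A1 and GUCY1B1 were at -2.37 and -1.64 and QDPR, which recycles a cofactor of nitric oxide synthase, at -1.29. The third subunit tested, GUCY1A2, was at -0.30 and did not pass (adjusted p = 0.369). The arginine enzyme ASS1 was higher by 1.67. The 5 companions of NOS1 interneurons were all higher against the other classes, but SST and NPY were also markers that named the class, so that this count is no separate evidence.

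Patterns across classes were compared over 34 sums of a cluster and a library, which share libraries and depth, by Pearson's r of log2(CPM + 1) among 12372 genes. Among the 5 genes most like CHAT were SLC5A7 (r = 0.78), TKT (0.66) and AHCY (0.65). For SLC5A7 they included SLC10A4 (0.87), LHX8 (0.86) and ECEL1 (0.85). The 5 for ACHE were ASS1 (0.90), TXNL1 (0.88), DIRAS3 (0.88), MAP1B (0.87) and IPO4 (0.86). NOS1 had MOXD1 (0.79), NXPH2 (0.78), STK32B (0.75), THSD4 (0.73) and CYGB (0.73). MOXD1 was found in 23 and 33 of the 31 and 45 interneuron-like nuclei with NOS1. Between the members, r was 0.72 for SLC5A7 with ACHE, 0.34 for CHAT with ACHE and 0.16 for ACHE with NOS1. On ranks these pairs were less alike, with Spearman's rho at 0.29, 0.035 and -0.0098. For CHAT with SLC5A7 rho was 0.57.

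In the comparison of nuclei with whole cells, the counts of whole cells were few. The whole cells library of sheep 1 and 2 had 0 UMIs of CHAT, SLC5A7 and NOS1 and 1 of ACHE. That of sheep 3 and 4 had 7 of CHAT, 29 of SLC5A7, 64 of ACHE and 25 of NOS1. The nuclei libraries had 275 and 575 of CHAT, 283 and 275 of SLC5A7, 596 and 221 of ACHE and 766 and 901 of NOS1. The first whole cells library was too shallow to show the genes: 3 counts there are 23.8 CPM of the RNA outside mitochondria, above every nuclei level on that scale. In those terms the second whole cells library had 2.79 CPM of CHAT, 11.5 of SLC5A7, 25.5 of ACHE and 9.95 of NOS1. The nuclei libraries had 3.93 and 11.3, 4.05 and 5.42, 8.52 and 4.36, and 11.0 and 17.8. SLC5A7 and ACHE were thus higher in that whole cells library than in either nuclei library, CHAT was lower than in either, and NOS1 was lower than in either.

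Library sums were tested with edgeR's quasi-likelihood test after TMM normalisation, with adjustment over 15781 genes. ACHE was lower in nuclei, at a log2 difference of -1.91 (SE 0.50, adjusted p = 0.00187). SLC5A7 at -1.25 (SE 0.59, adjusted p = 0.0762), CHAT at 1.35 (adjusted p = 0.149) and NOS1 at 0.51 (SE 0.54, adjusted p = 0.437) did not pass. Of the 4 genes 1 was called, where 52.2% of all genes were, 29.8% higher and 22.4% lower. A count over only 4 genes is no result about them as a set. The median over all genes was 0.61. With library size alone in place of TMM it was 3.66, with 96.2% of the calls higher in place of 57.0%, and ACHE at 1.19 and SLC5A7 at 1.89 changed sign while staying below that median. With mitochondrial genes left out, library size alone gave -1.80 for ACHE (adjusted p = 0.0084), -1.08 for SLC5A7 and a median of 0.62. With the pool as a block the adjusted p of ACHE was 0.0748, with DESeq2 it was 0.117, and without nuclei replicate 2 it was 0.169. Without whole cells replicate 2, the only one with more than 1 UMI of any of the 4 genes, no gene of the 4 was called and ACHE was at 0.12. With 2 pools per kind, p-values measure only the spread between these samples.

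**Figure D5:**
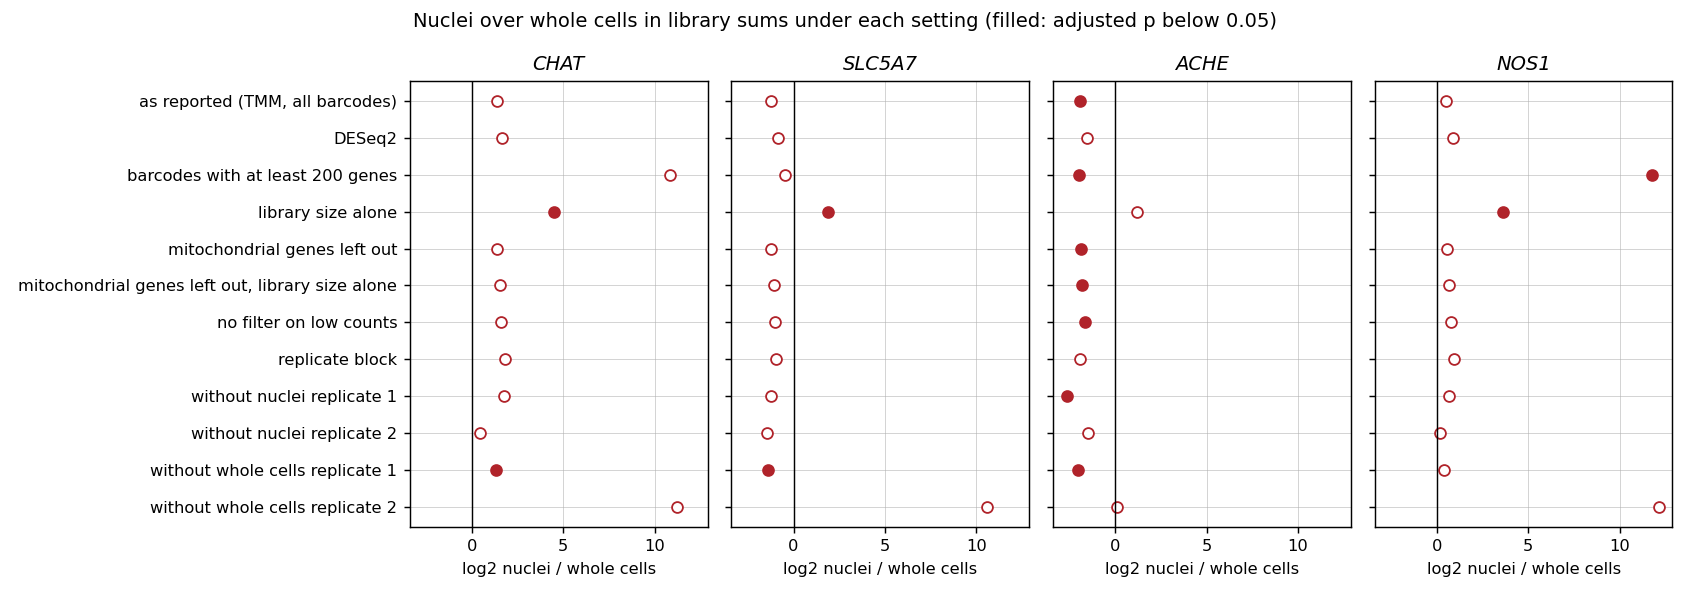
Log2 difference of nuclei over whole cells in library sums (horizontal axis) for each gene under 12 settings (vertical axis), filled where the adjusted p is below 0.05. ACHE and SLC5A7 lie left of 0 except with library size alone and without whole cells replicate 2, and CHAT and NOS1 lie right of 0 throughout, with values above 10 where the whole cells hold no count.

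Co-detection in whole cells rested on 3 barcodes. Of 32500 barcodes in the second library, 118 had any of the 4 genes, 3 had 2 or more of them, and the median mitochondrial share of the 118 was 86.6%. Only 11 of the 118 had at least 200 genes. In library sums, fewer cells of a type and less RNA per cell cannot be told apart. The kinds of library also differ in the Cell Ranger version of their file headers, 6.0.1 for whole cells and 7.0.0 for nuclei, and that difference and the kind of input cannot be told apart.

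The acetylcholine handling genes went both ways in that comparison, with 4 of 9 tested higher in nuclei, 4 lower and a median of 1.60. CHKA rose by 3.17, SLC44A1 by 2.56, BCHE by 1.90 and PCYT1A, an enzyme of phosphatidylcholine synthesis, by 1.60. CHKB was at -3.23, SLC10A4 at -2.58, the mitochondrial citrate carrier SLC25A1 at -2.39 and ACLY at -1.22. Of 23 nitric oxide genes 8 were higher and 7 lower. Over all genes 29.8% were higher and 22.4% lower. Higher were PRKG1 by 6.46, PDE5A by 4.65, PDE1A by 4.02 and ARG2 by 3.28, and lower were DDAH2 at -4.52, ASL at -4.29, ASS1 at -3.95 and the endothelial synthase NOS3 at -3.36. Of 10 receptor genes tested 4 were lower, all muscarinic: CHRM1 at -3.47, CHRM4 at -3.06, CHRM5 at -3.02 and CHRM3 at -2.79. With DESeq2, 3 receptor genes had an adjusted p and 0 were lower, and 1 acetylcholine handling gene was lower. Of 7 lineage genes TACR1 alone passed, higher by 5.44, and the median was -0.32. Of the companions of NOS1 interneurons, TACR1 and HTR2C were higher, by 5.44 and 3.81, and SST was at -1.71. Over all lists 14 genes were higher and 16 lower. With library size alone, which counts the mitochondrial UMIs, 39 were higher and DDAH2 alone was lower, at -1.51 (adjusted p = 0.0188). The other downward calls thus hold only relative to the other genes. With mitochondrial genes left out under TMM, each of the 16 passed as lower by edgeR except SLC25A1 (adjusted p = 0.0518). Library size alone without mitochondrial genes gave 3363 lower calls over all genes, in place of 498 with them.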

How the data were processed

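Droplet RNA sequencing was done on 2 whole cells and 2 nuclei libraries of sheep striatum. The authors deposited raw UMI counts per gene and barcode. Per the file headers these come from Cell Ranger 6.0.1 (whole cells) and 7.0.0 (nuclei), and the submitters' processing notes also list Cell Ranger 2.1.1 and STAR 2.7.2a. Genome build, intron and strand settings are not given in the sources used here.

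The 4 genes and the gene lists were chosen with earlier results of these data known. Named are the 4 genes, the listed genes past the test (at most 8 per list by size) and those at 0 in all nuclei, the 5 genes most like each member, and every lineage and NOS1 companion gene in the groups of nuclei with the members. A few genes that this rule names are not reported here. Nuclei were kept if 200 or more genes were detected and mitochondrial UMIs were 5% or less. Scrublet calls were removed (390 nuclei in replicate 1; it marked none in replicate 2 and did not work there). Clusters came from scanpy 1.11.5 (2000 variable genes, 30 components, 15 neighbours, Leiden resolution 0.5) without the 4 genes and 3 of the lists. A class name needed 3 raised markers.

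CPM scales a class or library to a fixed total. Intervals are exact binomial at 95% and cover counting error only. Tests used edgeR 4.0.16 (quasi-likelihood, TMM, filterByExpr, Benjamini-Hochberg, threshold 0.05), with DESeq2 1.42.0 as an alternative. The tests were checked on simulated counts with known changes. Titles pair the libraries by pool. Over 1765 genes with at least 10 counts in every library the deviations of paired libraries correlated at -0.08. Alternatives varied normalisation, filters, doublet handling, clustering, thinning and libraries.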

Additional observations from a re-analysis of the deposited data

Results flagged for a closer look

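ACHE in nuclei over whole cells differed in sign between the pools of animals, with a log2 difference on TMM-normalised CPM of 0.57 for sheep 1 and 2 and -2.83 for sheep 3 and 4. The whole cells library of sheep 1 and 2 held 1 ACHE UMI, and on another scale, CPM of the RNA outside mitochondria, the ratio of nuclei to whole cells in that pool was 1.07 with an exact counting interval of 0.192 to 42.5. The difference between pools was not tested.

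SLC5A7 in interneuron-like nuclei over the mean of the other classes was at 0.63 on the log2 scale for sheep 1 and 2 and at -1.47 for sheep 3 and 4. These rest on 4 and 2 SLC5A7 UMIs in interneuron-like nuclei, and the difference was not tested.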

How the results depend on the processing

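Of the values recomputed under alternatives, 181 kept their direction and side of the threshold, or moved by less than the replicate spread, 57 moved, 12 passed the threshold, 6 no longer passed and 12 changed sign. The cause was not tested except where a value below shows it. Alternatives with unnamed clusters in the fit, and with pair nuclei of cluster 1 only, were chosen after seeing the data. The first whole cells library limits the comparison with nuclei, where a fitted difference against libraries with no count is no bound.

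For nuclei over whole cells, library size alone gave 4.49 for CHAT, 1.89 for SLC5A7, 1.19 for ACHE and 3.64 for NOS1, with 3 of the 4 genes called, 39 listed genes higher and 1 lower, and 13035 calls over all genes in place of 8231. DESeq2 gave -1.56 for ACHE, with 0 of 4 genes called in place of 1 (at an unadjusted p under 0.05 by edgeR ACHE and SLC5A7 passed) and 6 listed genes lower. Barcodes with at least 200 genes gave 11.7 for NOS1, with 2 of 4 called and 7 listed genes lower. With the pool as a replicate block ACHE was at -1.91 with adjusted p = 0.0748, 0 of 4 were called and 5471 genes were called in all. Leaving out 1 library leaves a kind with a lone library, assumed to vary like the other kind, and gave 0.42 to 11.2 for CHAT, -1.45 to 10.6 for SLC5A7, -2.66 to 0.12 for ACHE, 0 to 3 genes called and 4 to 16 listed genes lower. The highest values came without whole cells replicate 2 (4864 calls over all genes), and without nuclei replicate 2 there were 5438 calls. Without whole cells replicate 1, 3 genes were called, SLC5A7 at -1.39 and CHAT at 1.32 among them.

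For interneuron-like nuclei over the other classes, CHAT was at -1.76 without a replicate block (call lost, adjusted p = 0.196), 2.45 at resolution 1.0, 2.19 with doublets kept, -1.27 with the 8% highest doublet scores removed (call lost, adjusted p = 0.144) and 2.46 with at least 500 genes per nucleus. SLC5A7 was at 4.80, 3.81, 2.98 and 4.68 under the last 4. Pair nuclei among interneuron-like nuclei numbered 8 and 10, 8 and 10, 2 and 3, and 12 and 12 under them. With the 8% removed, 11 and 11 pair nuclei lay in a cluster named excitatory neuron-like, among the other classes of that fit. Leaving out 1 library, which allows no test, gave -1.47 to 0.63 for SLC5A7, 1.57 to 2.14 for ACHE and 7.66 to 8.29 for NOS1. Unnamed clusters in the fit left 1 listed gene lower in place of 4. Over medium spiny neuron-like nuclei, CHAT was at 4.80, 4.36 and 5.06 at resolution 1.0, with doublets kept and with at least 500 genes, each with 4 of 4 genes called. SLC5A7 was at 5.93, 4.55 and 7.06 there and at 6.10 with the 8% removed, which gave 10 listed genes lower in place of 5. Without a replicate block ACHE was at 1.77 and 1 gene was called. Leaving out 1 library gave 0.27 to 2.57 for SLC5A7 and 1.48 to 1.95 for ACHE.

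The mean share of nuclei with CHAT was 0.729% thinned to 500 UMIs and 0.293% at 2 or more UMIs. For SLC5A7 it was 0.308% thinned to 1000, 0.270% to 500, 0.294% at 2 or more UMIs, 0.849% with up to 20% mitochondrial UMIs, 0.767% with doublets kept and 0.735% with the 8% removed. For ACHE it was 0.717%, 0.504% and 0.649% under the first 3, and for NOS1 0.393%, 0.233% and 0.551%, then 1.38% with up to 20% mitochondrial UMIs and 1.41% with the 8% removed. SLC5A7 nuclei with CHAT were 15.0%, 11.0% and 45.4%, and with ACHE 25.7%, 34.5% and 50.1%, thinned to 1000, to 500 and at 2 or more UMIs. NOS1 nuclei with CHAT were 0% thinned to 500 and 1.14% at 2 or more UMIs. LHX8 was in 67.9% of all pair nuclei (mean of the libraries) and in 90.9% of those of cluster 1. Of the 5 genes most like each member, Spearman's rho shared 2 for CHAT, 0 for SLC5A7, 3 for ACHE and 2 for NOS1.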
